A study of Mus musculus with 32 samples.

Results

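The genes described are those of MHC class II and their regulator Ciita, 10 named genes of the 29511 in the count table, all of which were found by symbol in the count and FPKM tables. They are the transactivator Ciita, the chain genes H2-Aa, H2-Ab1 and H2-Eb1, the pseudogene H2-Ea-ps, the invariant chain gene Cd74, the peptide-loading genes H2-DMa, H2-DMb1 and H2-DMb2, and H2-Oa. In tumors of Clic4 knockout (KO) hosts, 7 of the 9 genes that could be tested were higher than in tumors of wildtype (WT) hosts at a false discovery rate (FDR) of 0.05, where 2.02% of all genes were. These 7 also differed by more than 2-fold, as 1.01% of all genes did at this FDR and in this direction. Between KO and WT lungs of tumor-bearing mice, 3 of 10 genes were higher at the looser FDR of 0.25, where 0.393% of all genes were, and 0 at 0.05.

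Class II molecules present peptides from endosomes to CD4 T cells, and dendritic cells, B cells and activated macrophages carry most of them. An alpha and a beta chain pair in the endoplasmic reticulum and are held by the invariant chain, which endosomal proteases then cut away. The H2-DM dimer exchanges the remaining fragment for antigenic peptide, and the H2-O dimer, found mainly in B cells, restrains H2-DM. Ciita does not bind DNA itself. It docks on RFX, NF-Y and CREB factors at class II promoters, and interferon gamma induces it in many other cell types through factors that include Irf1.

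RNA was sequenced from 32 tissues of virgin female FVB/N mice. By the study's methods the mice entered experiments at 6 to 8 weeks of age, and the 14-day tissues were taken 14 days after tumor cells were implanted. The study compared how host Clic4 alters the primary tumor and the lung before metastasis. The samples were 14-day primary tumors of 6 KO and 6 WT hosts, 14-day lungs of 6 KO and 6 WT tumor-bearing mice, and baseline lungs of 4 KO and 4 WT mice without a graft. The tumors were orthografts of 6DT1, a mouse mammary tumor cell line of FVB origin placed in the fourth mammary fat pad, and these cells carried Clic4 in both hosts. The KO is constitutive, made on a mixed background and backcrossed to FVB/N, and the mice came from heterozygous crosses. No label ties a tumor to a lung of the same mouse. Each tissue is a mixture of cells, so that more cells of a type and more RNA per cell cannot be told apart.

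Between 4446323 and 8318711 counts were assigned to genes per sample. Levels between samples are given as TMM-normalized CPM (counts scaled to library size), because 3 noncoding RNAs took 58.1 to 70.2% of the FPKM. Levels between genes are given as FPKM, which is per transcript length. Clic4, whose remaining reads in KO mice come from outside the excised exon, had 206 to 280 CPM in KO lungs and 590 to 857 CPM in WT lungs, so that the lung labels held. In tumors it had 245 to 281 CPM in KO hosts and 293 to 321 CPM in WT hosts, which did not overlap (log2 difference -0.21, SE 0.049, edgeR FDR 0.0343). Tumors had 78 to 92 CPM over 5 alveolar type 2 markers, against 8237 to 11616 CPM in lungs, and in tumors nearly all of this was Abca3, with means of 87.0 CPM in KO and 82.2 CPM in WT hosts. The reads were aligned to the C57BL/6J genome, and the effect of class II alleles that differ between FVB/N and C57BL/6J on mapping was not tested.

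The H2 genes lie together on chromosome 17 of GRCm38, as GENCODE M21 places them. H2-Oa is at chr17:34092340-34095234, H2-DMa at chr17:34119541-34139101, H2-DMb2 at chr17:34143307-34151555 and H2-DMb1 at chr17:34153072-34160230. H2-Ab1 follows at chr17:34257689-34269419, H2-Aa at chr17:34282744-34287823, H2-Eb1 at chr17:34305867-34316674 and H2-Ea-ps, annotated as a polymorphic pseudogene, at chr17:34341959-34344645. H2-Aa and H2-Ea-ps are on the minus strand and the others on the plus strand.

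The promoter windows of RefSeq for GRCm38.p6, 250 bases before and 50 after each gene start, had entries for 6 of the 10 genes. They are shown because Ciita acts through the X box, bound by RFX, and the Y box, bound by NF-Y, and because 4 of the 6 genes (H2-Aa, H2-Eb1, H2-DMa and H2-DMb2) rose in tumors of KO hosts. The Y box was searched as TGATTGG on both strands, and the X box core as GNAAC with 20 to 30 bases before that Y box, so the searched motifs do not overlap. In the windows printed 5′ to 3′, capitals mark the matched letters.
H2-Aa, chr17:34287852-34287923, minus strand: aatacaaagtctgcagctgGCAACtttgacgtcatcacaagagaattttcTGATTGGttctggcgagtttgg
H2-Eb1, chr17:34305756-34305827, plus strand: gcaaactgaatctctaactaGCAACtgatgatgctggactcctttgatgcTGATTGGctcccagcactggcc
H2-DMb1, chr17:34153078-34153149, plus strand: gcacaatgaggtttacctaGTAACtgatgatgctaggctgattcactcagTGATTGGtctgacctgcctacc
H2-DMb2, chr17:34145107-34145178, plus strand: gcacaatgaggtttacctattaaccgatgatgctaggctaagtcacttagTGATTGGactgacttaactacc
H2-Oa, chr17:34092284-34092355, plus strand: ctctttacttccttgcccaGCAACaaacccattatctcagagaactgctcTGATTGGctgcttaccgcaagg

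The Y box letters were in the windows of 5 of the 6 genes, and in 7.82% of all 32851 RefSeq windows of this length. The spaced pair of both motifs was in the windows of H2-Aa, H2-Eb1, H2-DMb1 and H2-Oa, with 25 or 26 bases between, and in 0.323% of all windows. H2-DMb2 had the Y box letters without GNAAC before them, although 63 of the 72 bases shown were the same as in its neighbor H2-DMb1. The window of H2-DMa held neither motif in this spelling.

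Per transcript length, Cd74 was the most abundant of the 10 genes in each of the 6 groups, with group means of 384 to 850 FPKM. H2-Aa, the alpha chain gene, had 171 to 236% of the FPKM of H2-Ab1, its beta chain partner, as group means. The genes of the second classical dimer were at far lower levels than those of the first. H2-Eb1 had 1.15 to 2.43% of the FPKM of H2-Ab1, and H2-Ea-ps 1.38 to 2.52% of the FPKM of H2-Aa, and H2-Eb1 values rest on 6 to 60 counts per sample. Ciita had 3.30 to 4.35% of the FPKM of H2-Ab1.

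In the order of the 6 groups by mean CPM, tumors of KO hosts were highest for 8 of the 10 genes, the exceptions being H2-Ea-ps and H2-Oa. Tumors of WT hosts were lowest for 9 of the 10 genes, and H2-Eb1 was the exception. Of the 50 pairs of neighboring groups in these orders, 4 had ranges that did not overlap. These were KO tumors above 14-day KO lungs for H2-Ab1 and H2-DMa, KO tumors above WT tumors for H2-Eb1, and 14-day WT lungs above WT tumors for H2-DMb2. Lung groups that were neighbors overlapped in each of the 10 orders.

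**Figure D1:**
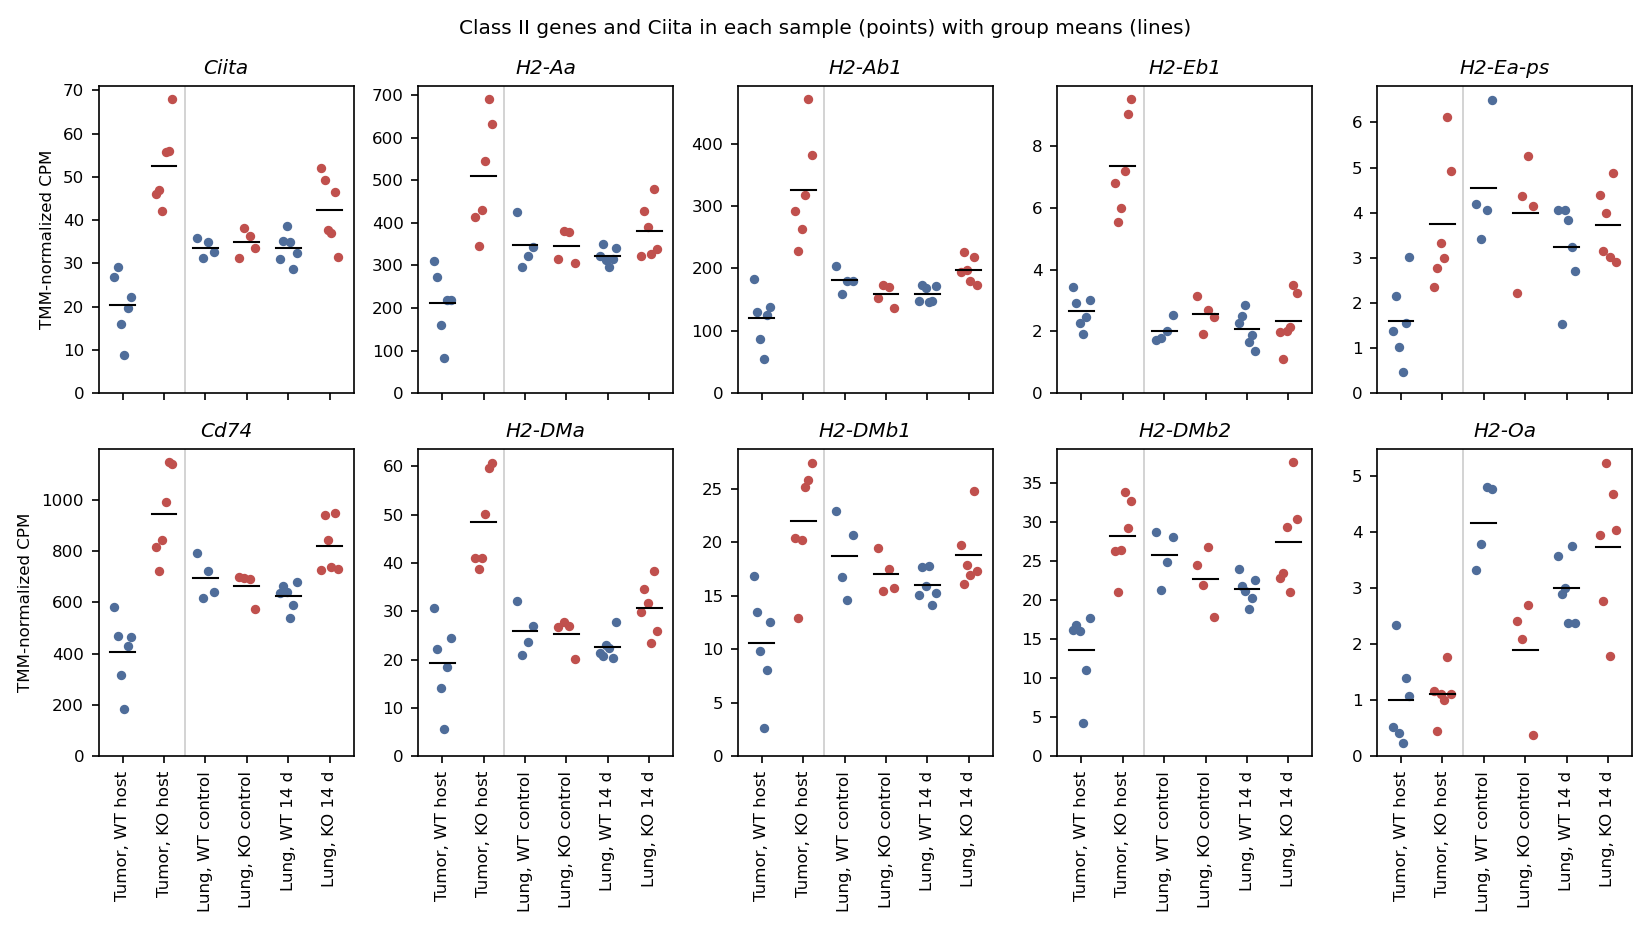
TMM-normalized CPM (y axes, from 0) of the 10 genes in the 6 groups (x axes), with 1 point per sample, red for KO and blue for WT, and a line at the group mean. In tumors the KO and WT points are apart for 7 genes, while H2-Oa is highest in lungs.

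The first comparison asked how the host's genotype alters the tumor. Ciita, at chr16:10480059-10528418 on the plus strand, had 8.80 to 29.1 CPM in tumors of WT hosts (median 21.0) and 42.1 to 68.1 CPM in tumors of KO hosts (median 51.4). Each KO tumor was above each WT tumor. Ciita rose by 1.35 on the log2 scale (SE 0.205, 2.54-fold, FDR 0.00165 by edgeR's quasi-likelihood test over 13830 genes).

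Among the chain genes, H2-Ab1 had 54.7 to 183 CPM in WT tumors (median 128) and 227 to 471 CPM in KO tumors (median 305). Its partner H2-Aa had 83.4 to 309 CPM in WT tumors (median 219) and 345 to 691 CPM in KO tumors (median 488). H2-Eb1 had 1.90 to 3.44 CPM in WT tumors (median 2.7) and 5.53 to 9.52 CPM in KO tumors (median 7.0). The groups did not overlap for any of these 3 genes. H2-Ab1 rose by 1.43 (SE 0.232, edgeR FDR 0.00253), H2-Aa by 1.26 (SE 0.247, FDR 0.0107) and H2-Eb1 by 1.45 (SE 0.195, FDR 0.000542) on the log2 scale. H2-Ea-ps, with 0.475 to 3.02 CPM in WT tumors and 2.34 to 6.12 CPM in KO tumors, overlapped between groups, and its log2 difference of 1.23 (SE 0.342) did not pass the limit (edgeR FDR 0.0767).

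Cd74, at chr18:60803848-60812652 on the plus strand, encodes the invariant chain that guides class II dimers to endosomes. It had 184 to 582 CPM in WT tumors (median 447) and 724 to 1149 CPM in KO tumors (median 918). The highest WT tumor was below the lowest KO tumor. Cd74 rose by 1.20 on the log2 scale (SE 0.209, 2.30-fold, edgeR FDR 0.00440).

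Of the peptide editor, H2-DMa encodes the alpha chain and H2-DMb1 and H2-DMb2 encode alternative beta chains. H2-DMa had 5.71 to 30.6 CPM in WT tumors (median 20.4) and 38.7 to 60.8 CPM in KO tumors (median 45.6). H2-DMb2 had 4.28 to 17.7 CPM in WT tumors (median 16.1) and 21.0 to 33.8 CPM in KO tumors (median 27.8). Both were apart between groups, and both rose, H2-DMa by 1.31 (SE 0.254, edgeR FDR 0.00972) and H2-DMb2 by 1.04 (SE 0.227, edgeR FDR 0.0230) on the log2 scale. H2-DMb1 had 2.62 to 16.9 CPM in WT tumors and 12.9 to 27.5 CPM in KO tumors, the groups overlapped, and its log2 difference of 1.04 (SE 0.283) missed the limit (edgeR FDR 0.0681). H2-DMb1 and H2-DMb2 are neighboring paralogs, and how reads that fit both were split between them was not tested.

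H2-Oa, the alpha chain of the H2-DM inhibitor, had only 1 to 12 counts per tumor and did not pass the filter on low counts. Its levels were 0.238 to 2.34 CPM in WT tumors and 0.461 to 1.77 CPM in KO tumors, which overlapped. The WT tumor with 12 counts of H2-Oa also had 51.2 CPM over 7 B cell markers, where the other 11 tumors had 2.01 to 6.03 CPM.

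In all, 7 of 9 tested genes rose in KO tumors at an FDR of 0.05 and none fell, where 2.02% of all 13830 genes tested rose. The same 7 passed the 2-fold limit, which 1.01% of all genes did in this direction. All 9 genes had p under 0.05 and a positive difference. The share of all genes at an unadjusted p under 0.05 was not computed, here or in the comparisons below. H2-Ea-ps had 10 to 38 counts in KO and 2 to 14 in WT tumors, so that its passing of the count filter rested on KO tumors. H2-Oa, at 1 to 12 counts, was left out, so the count of 9 depends in part on the filter. The median log2 difference of the 9 genes was 1.26, and that of all genes tested was -0.01. Ranges were apart for 7 of the 10 genes, and for 1.53% of all genes tested in this direction. One WT tumor, replicate 4, was the lowest of the 12 for each of the 10 genes, and without it the same 7 genes rose by 0.86 to 1.38 on the log2 scale. H2-DMb2 lost its call without KO tumor 5, KO tumor 6 or WT tumor 5 (edgeR FDR up to 0.0822), and with a block by replicate number. In limma on log2(FPKM + 1) H2-Aa, H2-DMa and H2-DMb2 did not pass, leaving 4 genes. DESeq2 called all 9, H2-DMb1 (DESeq2 FDR 0.0120) and H2-Ea-ps (DESeq2 FDR 0.0362) included. Shares of all genes were computed for the main edgeR fit alone, and none for DESeq2 or limma.

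**Figure D2:**
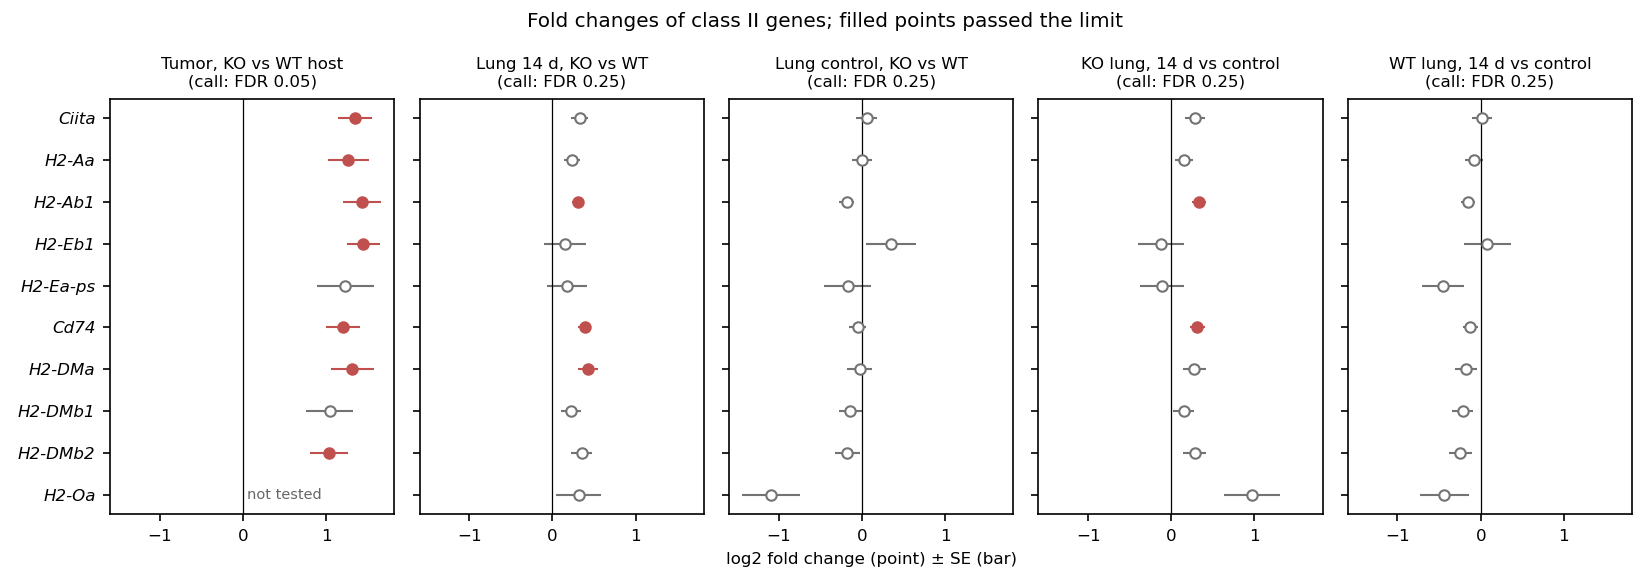
Log2 fold changes (x axes, point) with SE (bar) of the 10 genes in 5 comparisons, with filled red points where the gene passed the limit named above each panel. The tumor differences lie between 1.04 and 1.45, and none of the genes passed in the control lungs or in WT lungs at 14 days.

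Markers of immune cells moved in the same tumors. Over 3 leukocyte markers, KO tumors had 329 to 456 CPM and WT tumors 148 to 388 CPM, and Laptm5 rose (log2 difference 0.47, edgeR FDR 0.0334). Over 9 dendritic cell markers, KO tumors had 70.6 to 93.5 CPM and WT tumors 42.3 to 67.1 CPM, which did not overlap. Most of this gap was Itgax, with means of 43.5 and 21.6 CPM, and the other 7 tested markers, none of which passed, had log2 differences of -0.33 to 0.82, 3 of them below 0. Itgax, an integrin chain of dendritic cells and some macrophages, was the 1 of 8 tested markers that rose (1.00, SE 0.155, edgeR FDR 0.00177). Of the tested markers of macrophages 1 of 9 rose, of monocytes 1 of 4, of T cells 2 of 6 and of NK cells 0 of 4. At an unadjusted p under 0.05 were 6 of 9 macrophage, 3 of 4 monocyte, 6 of 6 T cell, 1 of 4 NK cell and 4 of 8 dendritic cell markers. All of these were higher in KO tumors except the macrophage marker Mertk, at -0.43. The T cell markers were all higher in KO tumors, with a median log2 difference of 1.14, against 1.26 for the class II genes. Macrophage markers summed to 983 to 1414 CPM in KO tumors and 680 to 1320 CPM in WT tumors, which overlapped. None of the 7 B cell markers passed the filter in tumors.

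Class II levels were therefore also taken relative to these markers, a scale added after the data had been seen. Cd74 per summed leukocyte marker level was 0.97 to 1.40 in KO tumors and 0.28 to 0.88 in WT tumors on the log2 scale. The groups did not overlap, and the difference in means was 0.66, against 1.20 for Cd74 alone. Relative to macrophage markers the difference in Cd74 was 1.01, and relative to dendritic cell markers it was 0.65, in both cases without overlap. Relative to monocyte markers it was 0.53, with overlap. H2-Ab1 gave 0.88, 1.23 and 0.87 and Ciita 0.83, 1.18 and 0.82 relative to leukocyte, macrophage and dendritic cell markers, each without overlap between KO and WT tumors. Relative to monocyte markers H2-Ab1 gave 0.76 and Ciita 0.70, both with overlap. The macrophage sum depends on its largest member, Mrc1, with means of 361 CPM in KO and 389 CPM in WT tumors (log2 difference -0.12). Of the 9 macrophage markers 7 were higher in KO tumors, C1qb by 0.73. The share of all genes without overlap on these scales was not computed, here or in lungs. The part of a shift between cell types in these differences was not tested beyond these values.

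The other genes of the pathway were taken from lists of 31 genes, of which 29 could be tested in tumors. Among them 5 rose in KO tumors and 0 fell, where 2.02% of all genes rose, with a median log2 difference of 0.21. Interferon gamma signaling held 3 of the 5. Irf1, a transcription factor that acts on the Ciita gene, had 53.7 to 71.3 CPM in WT tumors and 107 to 155 CPM in KO tumors and rose by 1.16 (SE 0.10, edgeR FDR 4.3e-05). The groups did not overlap. Socs1, a feedback inhibitor of the receptor kinases, rose by 1.5 (SE 0.234, edgeR FDR 0.00188) and the kinase gene Jak2 by 0.50 (SE 0.075, edgeR FDR 0.00163).

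Ifng itself was too low to test, with 0 to 3 counts in each WT tumor and 2 to 17 counts in each KO tumor. Its ranges of 0 to 0.516 CPM and 0.443 to 2.74 CPM overlapped. None of the 7 RFX, NF-Y and CREB genes passed edgeR's test, and none had p under 0.05. Rfx5, the large RFX subunit, had 25.3 to 33.9 CPM in WT tumors and 30.7 to 36.2 CPM in KO tumors (log2 difference 0.13, SE 0.082, edgeR FDR 0.471). Of the 8 genes on the endosomal enzyme list, Ctss, the protease that trims the invariant chain, rose by 1.00 (SE 0.195, edgeR FDR 0.0104), and Ifi30, a thiol reductase induced by interferon gamma, rose by 0.43 (SE 0.105, edgeR FDR 0.0444). No gene passed among the ligases that turn over surface class II, the class II receptors of T cells or the costimulatory partners, where 1 of 2, 1 of 2 and 2 of 3 genes had p under 0.05.

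**Figure D3:**
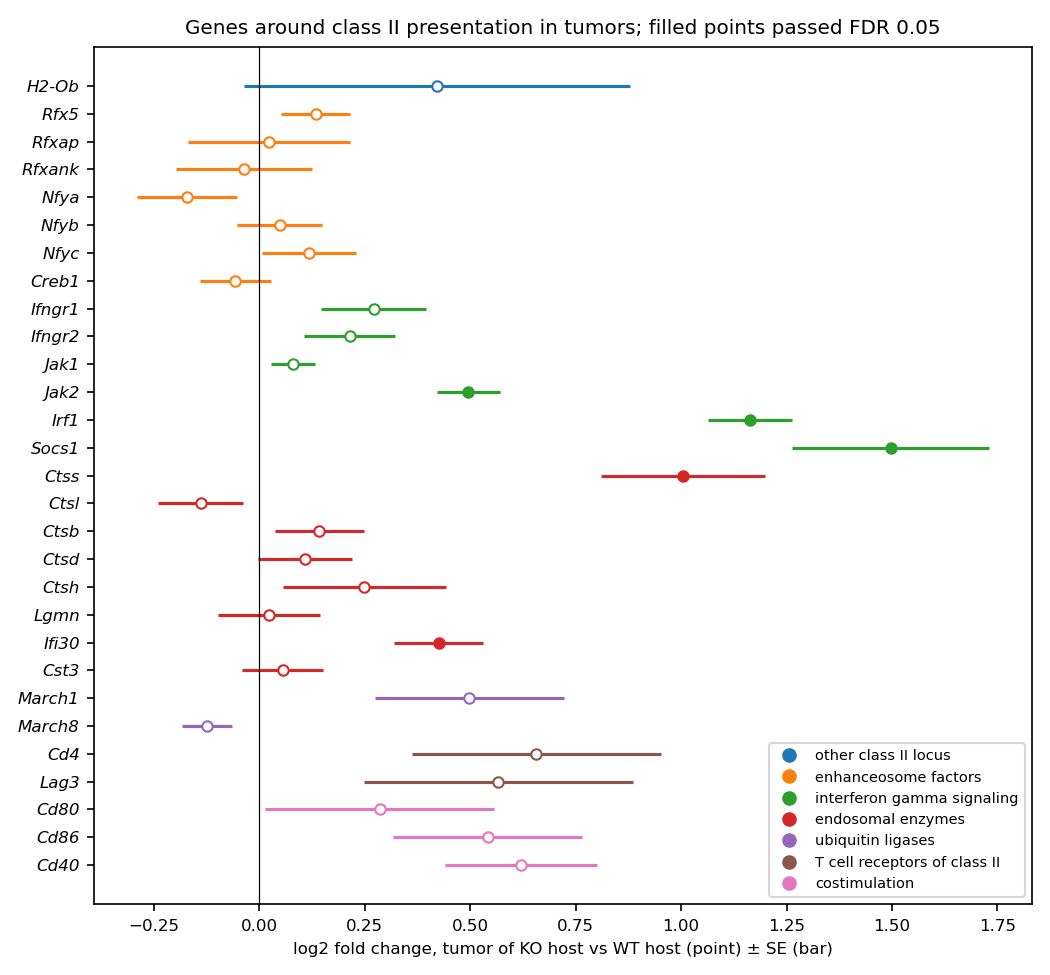
Log2 fold changes in tumors of KO against WT hosts (x axis, point) with SE (bar) of the 29 tested genes around class II presentation (y axis), with list colors in the key and filled points for genes past an FDR of 0.05. The filled points are Jak2, Irf1, Socs1, Ctss and Ifi30, and the enhanceosome factors lie between -0.17 and 0.13.

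Within groups of 6 samples, Ciita was set against H2-Aa, H2-Ab1, H2-Eb1 and Cd74 on the log2(CPM + 1) scale, in 16 correlations. In WT tumors Pearson's r was 0.98 with H2-Aa (exact permutation p 0.00556, adjusted 0.0444), 0.96 with Cd74 (exact p 0.00694, adjusted 0.0444), 0.91 with H2-Eb1 (exact p 0.00833, adjusted 0.0444) and 0.94 with H2-Ab1 (exact p 0.0125, adjusted 0.05). Spearman's rho was 0.83 to 0.94 in WT tumors, none of them under an adjusted exact p of 0.187. Without the 2 samples farthest from the median of Ciita, r stayed at 0.97 to 0.99. In KO tumors r was 0.71 to 0.87 (adjusted exact p 0.08 to 0.217). In the 14-day lungs r was -0.44 to 0.76, and no correlation passed. The leukocyte markers of WT tumors also varied, from 148 to 388 CPM.

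**Figure D4:**
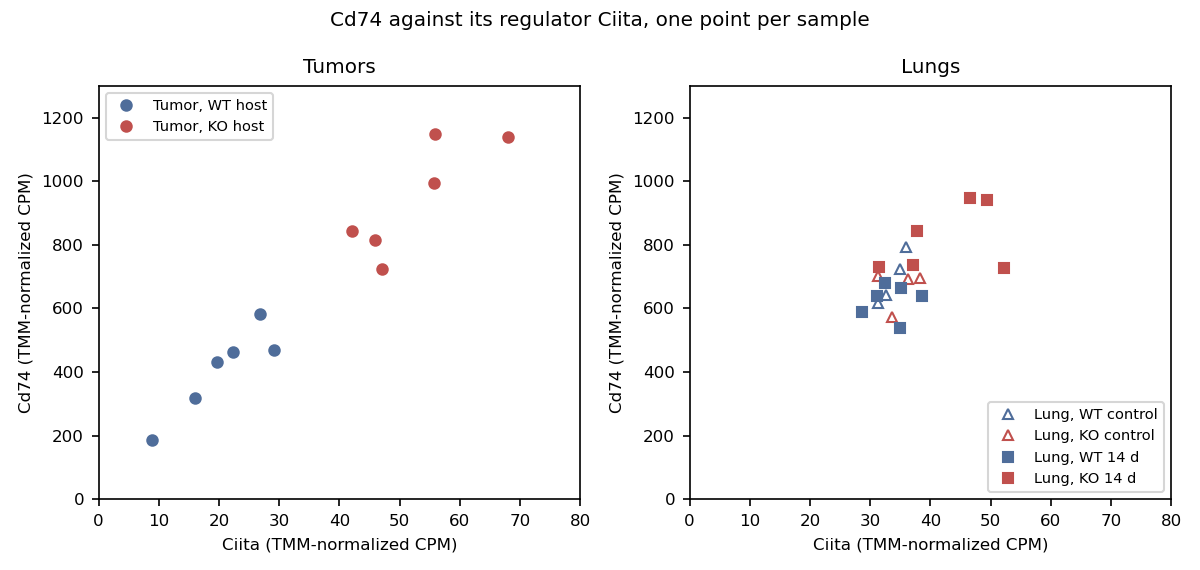
TMM-normalized CPM of Cd74 (y axes) against Ciita (x axes), with 1 point per sample, tumors on the left and lungs on the right, red for KO and blue for WT, and open triangles for control lungs. Tumors of WT hosts reach 29.1 CPM of Ciita and 582 CPM of Cd74, and each tumor of a KO host lies above both values.

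As a description, the deviations from the group means were correlated for all genes across the 12 tumors. The 5 genes outside the list that were most like H2-Ab1 were Tyrobp (r = 0.991), Adgre1 (0.962), Tlr8 (0.954), Tm2d2 (0.946) and Scarb2 (0.943). Cd74 had 0.975 and H2-Aa 0.970. Those most like Ciita in tumors were Gm14548 (0.979), Tmsb4x (0.965), Ptprc (0.958), Rac2 (0.956) and Arhgap30 (0.955). Tyrobp, an adaptor of myeloid receptors, Adgre1, which encodes F4/80, and Ptprc, which encodes CD45, are genes of leukocytes. Across the 20 lungs, the genes most like H2-Ab1 were Cd74 (0.862), H2-Aa (0.845) and H2-DMa (0.828), followed outside the list by Gm14780 (0.810), Bard1 (0.787), Wdfy4 (0.768), Spag5 (0.755) and C1s1 (0.730). Those most like Ciita in lungs were Pak1 (0.824), Tmem238 (0.788), 5430420F09Rik (0.778), Lsm7 (0.764) and Lrrc16b (0.748). Points of a tissue share depth and cell content, and no test was made.

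The next comparison set KO against WT lungs of tumor-bearing mice at 14 days, with the FDR limit of 0.25 that the study used for lungs. Cd74 had 540 to 680 CPM in WT lungs (median 639) and 726 to 947 CPM in KO lungs (median 790). No KO lung was below a WT lung. Its log2 difference was 0.39 (SE 0.080, 1.31-fold, edgeR FDR 0.0669). H2-Ab1 had 147 to 174 CPM in WT lungs (median 158) and 173 to 225 CPM in KO lungs (median 196), so that 1 KO lung lay within the WT range. It was higher by 0.31 (SE 0.076, edgeR FDR 0.129). H2-DMa had 20.3 to 27.9 CPM in WT lungs and 23.5 to 38.4 CPM in KO lungs and was higher by 0.43 (SE 0.121, edgeR FDR 0.234).

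These 3 of 10 genes rose and none fell, where 0.393% of 16029 genes rose. None of the 3 reached the 1.5-fold limit of the study, which 0.106% of all genes passed in this direction. All 10 genes had a positive difference and 6 had p under 0.05, for which no share of all genes was computed. The median was 0.31 against 0.002 for all genes. Ranges were apart for 1 gene, and for 0.275% of all genes in this direction. Ciita had 28.7 to 38.6 CPM in WT lungs and 31.5 to 52.2 CPM in KO lungs, which overlapped, and its difference of 0.33 (SE 0.104) did not pass (edgeR FDR 0.324), although it did in DESeq2 (FDR 0.223) and without KO lung 6 (edgeR FDR 0.121). Cd74 passed without any one of the 12 lungs, H2-Ab1 failed without KO lung 2 or 5 or WT lung 1 or 4, and H2-DMa failed without any of KO lungs 2, 3 and 5 or WT lungs 1 to 5. With GC offsets, in limma or with only these 2 groups in the fit, 1 gene was left, Cd74, and with no filter on counts H2-DMa failed (edgeR FDR 0.260).

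Cell markers were compared in the same lungs. The 5 alveolar type 2 markers were all higher in KO lungs, by 0.09 to 0.15, with 1 at an unadjusted p under 0.05 and 0 past the limit. None of the 3 leukocyte, 7 B cell, 8 dendritic cell or 9 macrophage markers tested passed the FDR of 0.25, with 1, 0, 1 and 1 genes under an unadjusted p of 0.05. Summed leukocyte markers were 349 to 587 CPM in KO lungs and 381 to 512 CPM in WT lungs. Summed B cell markers were 32 to 127 CPM in KO lungs and 27.2 to 90.2 CPM in WT lungs. Cd74 relative to macrophage markers was 0.86 to 1.26 in KO lungs and 0.53 to 0.74 in WT lungs on the log2 scale, without overlap. Relative to leukocyte, dendritic cell, monocyte and B cell markers its differences of 0.35, 0.29, 0.36 and 0.16 came with overlap, and Ciita overlapped relative to each of the 5 lists. Of the pathway lists, 0 of 27 genes tested passed by edgeR and 1 had p under 0.05. Irf1 differed by 0.03 (SE 0.090, edgeR FDR 0.971).

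In control lungs, which give the baseline of the genotypes, 0 of 10 genes passed by edgeR, where 0.973% of all genes did in either direction. At an unadjusted p under 0.05 there was 1 gene, and DESeq2 and limma called 0. The median difference was -0.10. Cd74 had 701, 697, 692 and 574 CPM in the 4 KO control lungs and 793, 617, 723 and 642 CPM in the 4 WT control lungs, which overlapped. H2-Ab1 had 153, 174, 170 and 137 CPM in KO and 204, 160, 179 and 180 CPM in WT control lungs, also with overlap. Ciita ranged from 31.3 to 38.3 CPM in KO and from 31.3 to 35.9 CPM in WT control lungs, with a log2 difference of 0.06 (SE 0.128).

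H2-Oa stood apart in these control lungs. It had 2.41, 2.10, 2.71 and 0.378 CPM in the KO control lungs and 3.33, 3.78, 4.80 and 4.76 CPM in the WT control lungs. The groups did not overlap, as was so for 3.87% of all genes in this direction, but its difference of -1.09 (SE 0.350) missed the limit (edgeR FDR 0.272) and passed only when the 2 groups were fitted alone. The lowest of these lungs, KO control 4, had 2 counts. B cell markers were low in the same lungs. Their sum was 55.6, 70.3, 69.6 and 25.7 CPM in KO and 115, 81.2, 93.5 and 89.7 CPM in WT control lungs, and 6 of the 7 markers had ranges apart. None of the 7 passed by edgeR, 3 had p under 0.05, and their median log2 difference was -1.0. All 7 T cell and all 4 tested NK cell markers were lower too, with medians of -0.39 and -0.71, 1 and 2 of them at p under 0.05 and none past the limit. The part of these cells in the H2-Oa difference was not tested.

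Lungs of tumor-bearing mice were then compared with control lungs of the same genotype. In KO mice, 2 of 10 genes rose, where 0.780% of all genes rose, and the median difference was 0.28 against 0.004 for all genes. H2-Ab1 had 173 to 225 CPM at 14 days and 137 to 174 CPM in controls and was higher by 0.33 (SE 0.085, edgeR FDR 0.174). Cd74, with 726 to 947 CPM at 14 days against 574 to 701 CPM, did not overlap and was higher by 0.31 (SE 0.090, edgeR FDR 0.239). Neither reached 1.5-fold, as 0.212% of all genes did, and ranges were apart for 1 of the 10 genes and 1.18% of all genes in this direction. Ciita differed by 0.29 (SE 0.117, edgeR FDR 0.466) and H2-Oa by 0.97 (SE 0.333, edgeR FDR 0.348), and neither passed. With GC offsets, in limma or with the 2 groups alone, 0 genes passed. H2-Ab1 failed without 14-day KO lung 3 or any of the 4 KO control lungs, and Cd74 failed without any of 8 of the 10 lungs, which left 0 to 3 genes. Laptm5 of the leukocyte markers also rose (0.35, edgeR FDR 0.206). The 7 B cell markers were all higher at 14 days, by a median of 0.48, but none had p under 0.05. Relative to summed leukocyte markers, Cd74 had a mean of 0.86 on the log2 scale in both groups, H2-Ab1 differed by 0.03 and Ciita by -0.03, all with overlap. Relative to monocyte markers Cd74 differed by -0.14 with overlap, and relative to macrophage markers by 0.40 without.

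In WT mice, 0 of 10 genes passed by edgeR, where 2.33% of all genes did in either direction, and 0 had p under 0.05. DESeq2 and limma also called 0. The median difference was -0.17, and 8 of the 10 genes were lower at 14 days than in controls. Cd74 differed by -0.13 (SE 0.089), H2-Ab1 by -0.16 (SE 0.084) and Ciita by 0.02 (SE 0.117). The 7 B cell markers were all lower, with 3 at p under 0.05 and none past the limit. Siglech, a marker of plasmacytoid dendritic cells, fell (-0.97, SE 0.313, edgeR FDR 0.242). It was the only 1 of the 8 tested dendritic cell markers that passed. Of these 8, 4 were higher at 14 days, and their median difference was 0.03.

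The interaction tested whether the change with a tumor differed between KO and WT lungs. It was positive for 9 of 10 genes, but 0 passed the FDR of 0.25 by edgeR, where 0.0499% of all genes did. For H2-Ab1 it was 0.49 (SE 0.120, edgeR FDR 0.300) and for Cd74 0.44 (SE 0.127, edgeR FDR 0.349). H2-Oa had 1.40 (SE 0.444, edgeR FDR 0.403). At an unadjusted p under 0.05 there were 5 genes, DESeq2 called H2-Ab1 and Cd74, and limma called 0. No share of all genes was computed for these counts. H2-Ab1 passed by edgeR without KO control lung 1 or 14-day WT lung 3. The interaction was also positive for all 7 B cell markers, at 0.67 to 1.87 with a median of 1.25, and 4 of them had p under 0.05, but none passed by edgeR. Their part in the class II values was not tested. The 14-day lungs enter this test, the genotype comparison and the comparison with controls alike, so the 3 are not independent.

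The difference between KO and WT hosts was larger in tumors than in 14-day lungs for 4 of 10 genes at an FDR of 0.05, where 0.802% of all 16825 genes were higher in this test. Ciita differed by 1.00 more in tumors than in lungs (SE 0.224, edgeR FDR 0.0193), H2-Ab1 by 1.11 (SE 0.239, edgeR FDR 0.0142), H2-Aa by 1.02 (SE 0.262, edgeR FDR 0.0485) and H2-Eb1 by 1.29 (SE 0.316, edgeR FDR 0.0368). Cd74, at 0.81 (SE 0.221), missed the limit (edgeR FDR 0.0720) but passed in DESeq2 (FDR 0.0240). With a tumor and a lung of the same genotype and number taken as 1 block, over the 14-day samples alone, none of the 10 genes passed, with 1.17 for H2-Ab1 (edgeR FDR 0.0541), 1.3 for H2-Eb1 (edgeR FDR 0.0628), 1.10 for H2-Aa (edgeR FDR 0.0685) and 1.05 for Ciita (edgeR FDR 0.111). H2-Eb1, which had overlapped between KO and WT lungs at 1.11 to 3.51 and 1.36 to 2.85 CPM, had the largest value of the 10 genes. Of the pathway genes, Irf1 (1.13, SE 0.138), Jak2 (0.41, SE 0.086) and Ctss (0.97, SE 0.239) also differed more in tumors.

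Ratios between the genes were compared within samples on the FPKM scale, with 4 ratios in 5 comparisons. None of the 20 two-sided exact permutation tests had an adjusted p under 0.05, and 5 had an unadjusted p under 0.05. H2-Ab1 had 33.2 to 43.6% of the FPKM of Cd74 in KO tumors and 29.0 to 33.4% in WT tumors, with a log2 difference of 0.22 (exact p 0.00433, adjusted 0.0866). H2-Oa had 1.80 to 4.05% of the FPKM of H2-DMa in KO tumors and 1.70 to 14.6% in WT tumors, against 9.05 to 20.1% in 14-day WT lungs. The log2 difference between KO and WT tumors was -1.10 (exact p 0.0390, adjusted 0.163). H2-Oa rests on 1 to 12 counts per tumor, with means of 1.10 CPM in KO and 1.00 CPM in WT tumors. H2-DMa had means of 48.6 and 19.3 CPM. The WT tumor at 14.6% was the one with 51.2 CPM over B cell markers. In control lungs H2-Oa had 2.77 to 12.5% of H2-DMa in KO and 13.5 to 27.4% in WT mice, a log2 difference of -1.40 with an exact p of 0.0286, the smallest that 4 against 4 allow (adjusted 0.163). H2-DMb2 had 137 to 159% of the FPKM of H2-DMb1 as group means, and Ciita to H2-Ab1 differed by -0.08 between KO and WT tumors (exact p 0.615). In control lungs that ratio was higher in KO mice by 0.24 (exact p 0.0286, adjusted 0.163), and in WT lungs it was higher at 14 days by 0.17 (exact p 0.0429, adjusted 0.163).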

How the data were processed

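Stranded mRNA libraries of 32 samples were sequenced as read pairs. The authors used STAR for alignment to GRCm38 and RSEM for quantification. The deposited counts are expected counts per gene, rounded and not normalized. The deposited FPKM are RSEM's values per gene, scaled for transcript length and depth. The counts were tested with the quasi-likelihood test of edgeR 4.0.16 in R 4.3.3, with TMM scaling and filterByExpr, in a fit of 12 tumors (13830 genes), a fit of 20 lungs with one mean per group (16029 genes) and a fit of all 32 samples (16825 genes). P-values were adjusted over all genes tested (FDR), with limits of 0.05 in tumors and for the difference between tissues and 0.25 in lungs. The SE is the log2 fold change divided by the square root of F. Ratios used log2(FPKM + 0.1), and correlations log2(CPM + 1). All 10 genes are named, with pathway genes past the limits, Ifng, Irf1 and Rfx5, and the 5 genes most like H2-Ab1 or Ciita. The genes, lists and tests were chosen with earlier results of these data known. One gene was taken off the pathway lists, which hold 31 genes without it, and is not reported here.

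The alternatives were DESeq2 1.42.0, size factors by RLE, no count filter, a minimum of 10 counts in all samples, a replicate block, limma 3.58.1 on log2(FPKM + 1), only the compared groups and each sample left out. GC offsets from a loess trend (span 0.5) in each library, levels relative to markers and a block of tumor and lung by genotype and number were added after seeing the data. The fits were tested on simulated counts first. By the study's text the samples of a group are from independent animals, but whether a tumor and a lung share a mouse is not given. Across 72 pairs of replicates, the chi-squared statistic divided by its degrees of freedom was 2.55 to 16.5, above sampling noise.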

Additional observations from a re-analysis of the deposited data

Results flagged for a closer look

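Of 60 sets of 4 or 6 samples (10 genes in 6 groups), 3 had a lowest sample far from its group by Dixon's test at the 95% level, which chance flags in about 1 of 20. Both H2-DMa, at 20.2 CPM, and Cd74, at 574 CPM, were lowest in KO control lung 4, the lung that also had the lowest H2-Oa and the lowest B cell marker sum of its group. H2-DMb2 was lowest, at 4.28 CPM, in WT tumor 4, where leukocyte markers were also lowest at 148 CPM.

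The host genotype difference was larger in tumors than in 14-day lungs, by the contrast in edgeR, for H2-Aa (1.02 on the log2 scale), H2-Ab1 (1.11), H2-Eb1 (1.29) and Ciita (1.00). None of the 4 passed when a tumor and a lung of the same genotype and number were taken as 1 block.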

How the results depend on the processing

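No result reversed. Of 7 genes called in tumors, limma on log2(FPKM + 1) called 4 and DESeq2 9, and leaving out a sample gave 6 to 8. Of 2 called in KO lungs at 14 days against controls, 1 passed with no filter and 0 in limma, with GC offsets, with GC offsets and the replicate block, or with only the 2 groups compared, and leaving out a lung gave 0 to 3. Of 3 called between KO and WT lungs at 14 days, 1 passed in limma, with GC offsets, with these and the replicate block, or with only the 2 groups compared, and leaving out a lung gave 1 to 4. In control lungs, where 0 passed, fitting only the 2 groups gave 1. The interaction, with 0 called, gave 2 in DESeq2 and 0 to 1 with a lung left out. The difference between tissues, with 4 called, gave 2 in limma, 5 in DESeq2 with Cd74 added, 3 with GC offsets, where H2-Aa was at FDR 0.0501, and 3 with no filter, where H2-Eb1 was at FDR 0.0611. Of the ratios, 0 passed, and leaving out a sample gave 0 to 1, with 1 without KO tumor 2 or WT tumor 1. The cause of these changes was not tested.

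The labels give no pairing by replicate number. Same-numbered KO and WT tumors correlated at -0.35 to 0.135 and same-numbered 14-day KO and WT lungs at -0.09 to 0.244 in their deviations. A tumor and a 14-day lung of the same number correlated at 0.05 to 0.178 in KO mice, where each of the 6 tumors correlated best with the lung of its own number, a hint from the data and not the design, and at -0.02 to 0.075 in WT mice, where 2 of 6 did. With such a tumor and lung as a replicate block within genotype, an alternative chosen after seeing the data, 0 genes passed in the difference between tissues. With the replicate block, 6 genes passed in tumors, where H2-DMb2 was lost (FDR 0.0817). It left 2 between the 14-day KO and WT lungs, without H2-DMa (FDR 0.320), 2 in KO lungs against controls and 4 in the difference between tissues, and 0 elsewhere. At this depth H2-Oa, H2-Eb1 and H2-Ea-ps rest on 1 to 60 counts per sample.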
